A study of Bos taurus with 8 samples.

Results

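This account concerns 9 genes of white blood cells, *PTPRC*, *CD3E*, *GZMA*, *TYROBP*, *CD14*, *CD68*, *CD163*, *CD207* and *CD74*, in the transcriptomes of bovine preadipocyte clones. The genes were chosen by name and selected on measured values, namely their raw counts in each clone against a floor of 3 counts, with the difference between the clone groups already known for *GZMA* and *CD207*. Of the 9 genes, 7 had a row among the 18871 gene rows of the count table, and all 7 had a total of at least 20 counts and entered the fit with 18339 genes. *CD163*, the haemoglobin scavenger receptor of macrophages, and *CD74*, the invariant chain of MHC class II, had no row in the table and were not analysed here. Because the counts chose the genes, their levels and differences are given as a description, with no p-value.

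The clones had been grown from single cells of the stromal vascular fraction (SVF), the mixed cells left when fat tissue is digested and its adipocytes removed. The fat was intramuscular (IMF) or subcutaneous (SF) and came from adult Angus-cross steers, and the study asked whether the 2 kinds of preadipocyte have different origins. RNA from 4 IMF clones (IMF1 to IMF4) and 4 SF clones (SF1 to SF4) was sequenced. The labels give the depot as the one difference between the groups and name no genetic change. They are a chosen subset of the clones obtained, since growth, capacity to form fat cells and shape all entered the choice, and no SVF sample of a depot gave more than 1 of them. Which clones shared a steer is not stated in the sources used here, and p-values measure the spread between clones only. The sources differ on whether adipogenic induction preceded RNA extraction. They also differ on whether libraries kept the strand, so reads from a gene and an overlapping gene on the other strand may not be separable.

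Total counts on gene rows were 19654917 to 29308882 for the IMF group and 19979899 to 24868233 for the SF group. Levels are given as CPM, counts scaled to a common library size after edgeR's TMM normalization, and a floor of 3 counts corresponded to between 0.0981 and 0.165 CPM. Such floors cover counting error only. All 10 stromal genes tested, among them the collagen genes *COL1A1*, *COL1A2* and *COL3A1*, had over 3 counts in every clone. Of the 10, *COL1A1* (log2 fold change -1.28, adjusted p = 0.000308, edgeR) and *THY1*, a surface protein of fibroblasts (-1.30, adjusted p = 0.0336), were called lower in IMF (4.04% of all genes were), and DESeq2 also called 2 lower and limma-voom 1. All 10 endothelial genes were called higher in IMF (4.78% of all genes were), their summed level being 171 to 195 CPM in the IMF clones and 3.91 to 5.32 CPM in the SF clones. From 7.12% to 10.6% of a clone's counts lay on 4450 gene IDs that the RefSeq list of the bovine genome ARS-UCD2.0 does not name, and whether every read counted came from the labelled clones was not tested.

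Leukocytes arise from blood-forming stem cells, a lineage apart from the mesenchymal cells that yield preadipocytes. Fat tissue holds many of them, chiefly macrophages and lymphocytes, and these enter the SVF with the stromal cells when tissue is digested. Some genes used as leukocyte markers are also transcribed in fibroblasts or endothelial cells, *CD14* and *CD68* among them. In bulk RNA, fewer cells of a type and less RNA per cell cannot be told apart.

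*PTPRC* (chromosome 16, 77540603 to 77670102 in ARS-UCD2.0) encodes CD45, the tyrosine phosphatase on the surface of all nucleated blood cells. It had 401, 58, 157 and 220 counts in IMF1 to IMF4 and 967, 540, 612 and 575 in SF1 to SF4. Every SF clone lay above every IMF clone, SF1 was the highest and IMF2, the most deeply sequenced clone, was the lowest. Mean levels were 9.68 ± 7.28 CPM for IMF against 33.3 ± 11.3 CPM for SF (SD over 4 clones). The log2 fold change, IMF relative to SF, was -1.79 (standard error 0.58). The IMF clones were spread 10.1-fold from the lowest to the highest, and the SF clones 2.00-fold. A pseudogene and an snRNA gene lie within the span of *PTPRC*, and neither had a row.

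Of 16 further pan-leukocyte genes listed, 7 were tested. Here and below, a gene was called at an adjusted p below 0.05 with a log2 fold change of at least 1 in size, and ± beside a log2 fold change is its standard error (SE). *WAS*, an actin regulator of blood cells, was lower in IMF by 1.45 on the log2 scale (4.34 ± 1.62 against 11.9 ± 4.65 CPM, adjusted p = 0.0155, edgeR's quasi-likelihood test). *FERMT3*, which activates integrins in blood cells, and *DOCK2*, which drives lymphocyte migration, were also called lower, with adjusted p-values of 0.0278 and 0.0393. *CD37*, a tetraspanin of lymphocytes, went the other way, from 1.39 ± 1.02 CPM in SF to 4.40 ± 0.589 CPM in IMF (a log2 difference of 1.66, adjusted p = 0.0266). *LAPTM5*, a lysosomal membrane protein of blood cells, had 5.47 ± 0.842 CPM for IMF against 0.812 ± 1.23 CPM for SF without overlap (log2 fold change 2.78, adjusted p = 0.0642). In edgeR, 1 of the 7 was called higher (14.3%, against 4.78% of all genes) and 3 lower (42.9%, against 4.04%). An unadjusted p under 0.05 was found for 6 of the 7 (85.7%, against 37.9% of all genes). DESeq2 and limma-voom each called 2 genes of the list higher, *LAPTM5* included, and 3 lower. The listed genes with the highest levels, the actin-binding *CORO1A* and *LCP1*, did not pass, with log2 fold changes of -0.82 and -0.88 and adjusted p-values of 0.167 and 0.0943.

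*CD3E* (chromosome 15, 29004581 to 29015196) encodes a signalling chain of the T cell receptor complex. It had 233, 218, 76 and 293 counts in IMF1 to IMF4 and 458, 373, 391 and 573 in SF1 to SF4. The groups did not overlap, IMF3 was the lowest and SF4 the highest. IMF averaged 8.92 ± 4.60 CPM and SF 22.4 ± 6.88 CPM (SD over 4 clones), with a log2 fold change of -1.33 ± 0.40 (SE).

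*GZMA* (chromosome 20, 24009813 to 24018787) encodes granzyme A, a serine protease that cytotoxic T and natural killer (NK) cells release from granules. It had 4, 4, 2 and 2 counts in IMF1 to IMF4 and 32, 79, 320 and 71 in SF1 to SF4. The IMF clones thus lay around the floor of 3 counts, while SF3 stood above the other SF clones. IMF averaged 0.127 ± 0.0468 CPM and SF 5.62 ± 5.03 CPM (SD over 4 clones). Summed over clones, the ratio of SF to IMF was 48.1 (95% exact interval 27.3 to 93.6, counting error only). SF3 held 320 of the 502 SF counts in this ratio. The log2 fold change in the fit was -5.41 (standard error 0.75), and -4.61 without SF3. The span of *GZMA* lies inside that of *CDC20B*, for which there was no row.

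Of 34 other T and NK cell genes listed, 15 were tested. In IMF, 0 were called higher and 1 lower (6.67%, against 4.04% of all genes tested), while 14 of the 15 had a log2 fold change below 0 (median -1.18, against -0.03 over all genes tested). An unadjusted p under 0.05 was found for 7 of the 15 (46.7%), against 37.9% of all genes tested. DESeq2 and limma-voom each called 4 lower and 0 higher. The gene called was *PRF1*, perforin, which opens the target cell membrane to granzymes. Its mean was 0.431 ± 0.254 CPM for IMF against 3.11 ± 1.68 CPM for SF (log2 fold change -2.84 ± 0.60, adjusted p = 0.00932). *PRF1* had 62, 48, 36 and 98 counts in SF1 to SF4, so SF3, the clone highest in *GZMA*, was the lowest of the SF clones in *PRF1*. *GZMK*, another granzyme, had at most 8 counts in any clone. *CD3D*, a chain of the same complex as *CD3E*, averaged 4.46 ± 3.09 CPM over IMF clones against 11.4 ± 3.29 CPM over SF clones (adjusted p = 0.0907). The T cell surface proteins *CD5* and *CD6* and the cytokine receptor chain *IL2RG* had the highest levels of the list. Their log2 fold changes were -1.04, -0.73 and -0.99, with adjusted p-values from 0.0713 to 0.249.

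**Figure D1:**
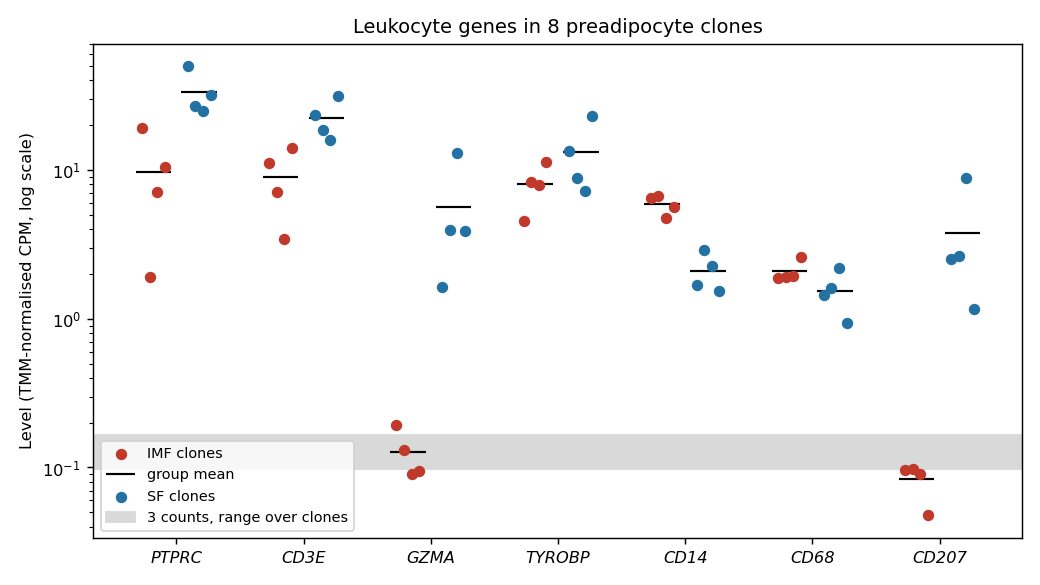
Level of the 7 genes in each clone, in TMM-normalised CPM on a log axis, with IMF clones in red, SF clones in blue and group means as black lines. The grey band spans the level of 3 counts, from 0.0981 to 0.165 CPM, in or around which the IMF values of *GZMA* and *CD207* lie, whereas *PTPRC*, *CD3E*, *TYROBP*, *CD14* and *CD68* lie above it in all 8 clones.

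Of 14 B cell genes listed, 8 were tested, and *CD22*, an inhibitory B cell receptor, and *POU2AF1*, a B cell coactivator, were called lower in IMF (25%, against 4.04% of all genes). *CD22* stayed at 6 counts or fewer in each IMF clone, whereas SF clones had 19 to 33 (log2 fold change -3.51 ± 0.90, adjusted p = 0.0210). *POU2AF1* had overlapping groups (-2.26, adjusted p = 0.0486). DESeq2 and limma-voom also called 2 genes lower and 0 higher, and 2 of the 8 (25%, against 37.9% of all genes) had an unadjusted p under 0.05. The antigen receptor chains *CD79A* and *CD79B* had log2 fold changes of -0.63 and -1.80 and did not pass. *TNFRSF13B*, a receptor for B cell survival factors, had the highest level of the list, 8.56 ± 3.99 CPM for IMF against 5.49 ± 2.49 CPM for SF, and a log2 fold change of 0.64 (adjusted p = 0.31).

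*CD14* (chromosome 7, 51762889 to 51765832), the lipopolysaccharide co-receptor of monocytes, was the one gene of the 7 with all IMF clones above all SF clones. It had 134, 204, 105 and 119 counts in IMF1 to IMF4 and 33, 58, 56 and 28 in SF1 to SF4. IMF averaged 5.88 ± 0.862 CPM and SF 2.10 ± 0.619 CPM (SD over 4 clones), with a log2 fold change of 1.48 ± 0.24 (SE). The highest IMF clone was 1.40-fold and the highest SF clone 1.88-fold above the lowest of its group.

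*CD68* (chromosome 19, 27312058 to 27314114), a lysosomal glycoprotein abundant in macrophages, was low in every clone. It had 39, 58, 43 and 55 counts in IMF1 to IMF4 and 28, 32, 54 and 17 in SF1 to SF4. The groups overlapped, with SF3 above 3 of the IMF clones in CPM. IMF averaged 2.08 ± 0.357 CPM and SF 1.54 ± 0.517 CPM (SD over 4 clones), with a log2 fold change of 0.43 ± 0.29 (SE). *EIF4A1* ends 505 bases from *CD68*.

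The co-receptors of *CD14* were in the list of partners of the receptors. Of 12 partners listed, 10 were tested, 2 were called higher in IMF (20%, against 4.78% of all genes) and 0 lower, and DESeq2 and limma-voom gave the same counts. An unadjusted p under 0.05 was found for 6 of the 10 (60%, against 37.9% of all genes). *TNFSF12*, a cytokine that CD163 binds, was lower by adjusted p alone (log2 fold change -0.66, adjusted p = 0.0057). The 2 were *TLR2* and *TLR4*, the signalling receptors to which CD14 hands bacterial lipids. *TLR2* averaged 5.60 ± 0.816 CPM for IMF against 0.393 ± 0.233 CPM for SF (log2 fold change 3.80 ± 0.38, adjusted p = 0.00026). *TLR4* had 5.95 ± 0.906 against 2.06 ± 1.05 CPM (log2 fold change 1.53, adjusted p = 0.0289). The adaptor *MYD88*, which acts below both, had 24.7 ± 1.94 and 24.6 ± 1.46 CPM. *MIF*, a cytokine that binds CD74, had a log2 fold change of 0.92 (adjusted p = 0.000428), under the fold threshold. *HMOX1*, haem oxygenase, which acts on haem taken up through CD163, and *CD44*, a co-receptor of CD74, had log2 fold changes of 0.97 and -0.21 and did not pass.

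Of 24 further monocyte and macrophage genes, 11 were tested, and 2 were called in each direction (18.2%, against 4.78% higher and 4.04% lower over all genes). DESeq2 called 2 higher and 4 lower, and limma-voom 2 and 2, with *SIGLEC1* in place of *MSR1*. *MRC1*, the mannose receptor CD206, had 462, 754, 520 and 419 counts in IMF1 to IMF4 and 7, 5, 7 and 4 in SF1 to SF4. Its mean was 22.6 ± 2.04 CPM for IMF against 0.279 ± 0.0598 CPM for SF (log2 fold change 6.31 ± 0.16, adjusted p = 4.08e-07). *FCGR1A*, a high-affinity receptor for immunoglobulin G, was also called higher (log2 fold change 1.14, adjusted p = 0.0235). *SPI1*, the transcription factor PU.1 that specifies myeloid cells, was lower in IMF, at 15.5 ± 5.37 against 34.8 ± 8.38 CPM (log2 fold change -1.17, adjusted p = 0.0186). *MSR1*, a scavenger receptor, was called lower as well, although its groups overlapped (log2 fold change -2.04, adjusted p = 0.0324), and the call was lost in limma-voom and in 5 of 8 fits with a clone left out. *CYBB*, the catalytic subunit of the phagocyte oxidase, had a log2 fold change of -0.83 and did not pass. As background, macrophages in tissue carry *MRC1*, *SPI1* and *CYBB* together, whereas *MRC1* is also known from some endothelial cells, whose marker list was higher in all 4 IMF clones. The part of those cells in the values of *MRC1*, *CD14* and *TLR2* was not tested.

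*CD207* (chromosome 11, 13559603 to 13565608) encodes langerin, the lectin that forms the granules of Langerhans cells, the dendritic cells of skin. It had 2, 3, 2 and 1 counts in IMF1 to IMF4 and 49, 53, 217 and 21 in SF1 to SF4. No IMF clone was over the floor and every SF clone was, with SF3 again the highest. SF averaged 3.78 ± 3.42 CPM (SD over 4 clones). The ratio of SF to IMF over the summed counts was 48.8 (95% exact interval 24.5 to 114, counting error only). SF3 held 217 of the 340 SF counts. In the fit the log2 fold change was -5.41 ± 0.76 (SE), and -4.60 without SF3. Within the SF clones, *GZMA* spanned 7.91-fold and *CD207* 7.61-fold from the lowest clone to the highest, the lowest being SF1 for *GZMA* and SF4 for *CD207*.

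Of 16 further dendritic and Langerhans cell genes, 8 were tested, 1 was called higher in IMF and 2 lower (12.5% and 25%, against 4.78% and 4.04% of all genes), while DESeq2 and limma-voom each called 1 higher and 3 lower. *CD83*, a maturation marker of dendritic cells, had 45, 75, 46 and 45 counts in IMF1 to IMF4 and 0, 0, 1 and 1 in SF1 to SF4 (adjusted p = 0.000192). The ratio of IMF to SF over its summed counts was 91.8 (95% exact interval 25.1 to 763, counting error only). *CD207* and *CD83* thus had opposite directions. *IRF8*, a transcription factor that dendritic cells need, was lower in IMF (log2 fold change -1.42, adjusted p = 0.0261), and so was *CCR7*, the receptor that guides them to lymph nodes (-1.65, adjusted p = 0.0218). *BATF3* and *ZBTB46*, further dendritic cell factors, had log2 fold changes of -0.19 and -0.83 and did not pass.

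*TYROBP* (chromosome 18, 46591329 to 46594310) encodes DAP12, an adaptor of NK and myeloid receptors that signals through an immunoreceptor tyrosine-based activation motif (ITAM). It had 95, 253, 175 and 239 counts in IMF1 to IMF4 and 262, 177, 178 and 416 in SF1 to SF4. The groups overlapped, SF4 was the highest and IMF1 the lowest. IMF averaged 8.04 ± 2.79 CPM and SF 13.1 ± 7.05 CPM (SD over 4 clones), a difference smaller than the SD of the SF clones, with a log2 fold change of -0.70 ± 0.40 (SE). *HCST*, the partner adaptor DAP10, ends 118 bases from *TYROBP* and had 2.39 ± 0.963 and 4.05 ± 2.68 CPM (adjusted p = 0.313). *TREM1* and *TREM2*, myeloid receptors that need DAP12, had at most 18 and 14 counts in a clone.

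Of 9 further ITAM adaptor and signalling genes, 7 were tested, 1 was called higher in IMF and 2 lower (14.3% and 28.6%, against 4.78% and 4.04% of all genes), and DESeq2 and limma-voom gave the same counts. *LCP2*, the adaptor SLP-76, averaged 3.77 ± 1.79 CPM for IMF against 11.9 ± 5.74 CPM for SF and was called lower (log2 fold change -1.66, adjusted p = 0.0229). *PLCG2*, a phospholipase below ITAM receptors, was called higher (log2 fold change 1.21, adjusted p = 0.0307), a call that held in 1 of 8 fits with a clone left out. *BLNK*, a B cell adaptor, had the highest level of the list, 44.5 ± 15.3 and 63.1 ± 15.3 CPM, and did not pass. Of 16 granulocyte and mast cell genes, the histamine-forming enzyme *HDC* alone was tested, with 6 to 363 counts across the IMF clones and a log2 fold change of -1.77 (adjusted p = 0.199). It was called lower by limma-voom and not by DESeq2.

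In place of *CD74*, the other genes of MHC class II presentation were examined. Of 16 listed, 6 were tested and 0 were called by edgeR or limma-voom (1 at an unadjusted p under 0.05). DESeq2 called 1 lower, *DYA*, a class II gene with 0 counts in every IMF clone and 0, 2, 8 and 17 in SF1 to SF4 (adjusted p = 0.0885 in edgeR). *CIITA*, the master regulator of class II transcription, averaged 6.30 ± 3.06 CPM for IMF against 10.8 ± 3.24 CPM for SF (log2 fold change -0.78, adjusted p = 0.157). The lysosomal enzymes *IFI30* and *CTSS*, which prepare antigen, had log2 fold changes of -0.41 and -0.85, with adjusted p-values of 0.158 and 0.313. A pair of class II rows was added after their values were seen. *OVAR-DRB1*, an ID with the prefix of sheep MHC genes that the bovine RefSeq list does not name, averaged 81.9 ± 44.3 CPM for IMF against 169 ± 52.6 CPM for SF (log2 fold change -1.05, adjusted p = 0.0811). *DQA* had 42.7 ± 22.3 and 71.7 ± 19.3 CPM (-0.75, adjusted p = 0.149). In each of the 8 clones, both rows had a higher CPM than any of the 7 leukocyte genes.

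**Figure D2:**
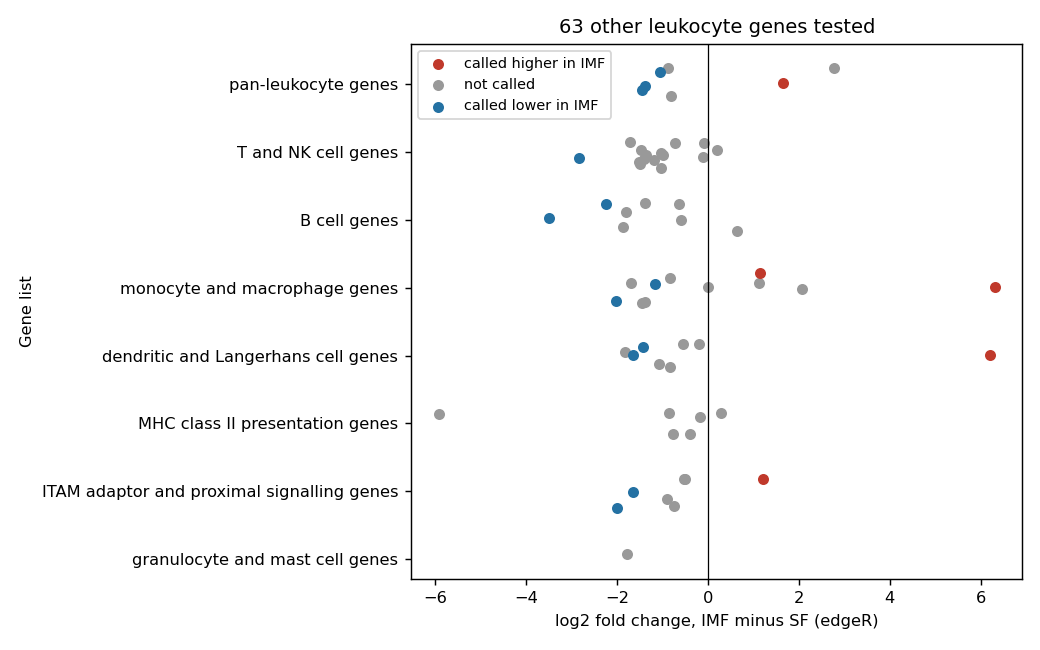
The log2 fold change between IMF and SF clones of 63 further leukocyte genes, one point a gene, in 8 lists along the vertical axis, with genes called higher in IMF in red and lower in blue. Most points lie left of 0, with a median of -0.99, while *MRC1* and *CD83* lie above 6 and the point farthest left is *DYA*, whose fitted value depends on the prior count because it had 0 counts in IMF.

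Over the 8 lists, 63 of 145 leukocyte genes other than the 9 were tested, and the remaining 82 had no row. Of the 63, 5 were called higher in IMF (7.94%), against 4.78% of all 18339 genes, and 12 were called lower (19.0%), against 4.04%. The lists had been chosen with earlier results of these data known, so these shares are a description. The log2 fold change was below 0 in 51 of the 63, against 9599 of all 18339 genes. The groups did not overlap in 19 of the 63, 30.2%, close to the 32.1% of all genes. Of the 7 genes chosen by the rule, 4 were called and 5 had groups that did not overlap, beside 8.82% called and 32.1% not overlapping over all genes. The rule had used these counts, so nothing is read from that comparison. The 12 lower calls became 6 without IMF2, 5 without IMF3, 7 without SF1 and 5 without SF4, and 18 without IMF4. The 5 higher calls became 2 without IMF1, IMF2, IMF3 or SF2 and 3 without IMF4. In each of the 8 fits with a clone left out, 5 of the 17 calls held, those of *WAS*, *PRF1*, *MRC1* and *CD83* among them. The calls of *CD22* and *SPI1* held in 7 of the 8, that of *CCR7* in 5, those of *IRF8* and *LCP2* in 4, those of *DOCK2*, *FERMT3*, *MSR1* and *FCGR1A* in 3, those of *CD37* and *POU2AF1* in 2 and that of *PLCG2* in 1. DESeq2 called 19 of the 63 lower and 6 higher. The shares over all genes are those of edgeR alone, and none is given for DESeq2 or limma-voom. Counts from those fits therefore cannot be set against these shares. Summed over the 63 genes, the level was 268 to 442 CPM in the IMF clones and 439 to 695 CPM in the SF clones. The 5 erythroid and platelet genes tested summed to 5.30 to 19.9 CPM in IMF and 4.55 to 5.96 CPM in SF, with 0 calls by edgeR or limma-voom (2 at an unadjusted p under 0.05) and 2 higher by DESeq2. The highest of them were *ALAS2*, which starts haem synthesis, and the platelet surface genes *GP1BA* and *ITGA2B*, with adjusted p-values from 0.119 to 0.726, and IMF4 had 342 of the counts of *ALAS2*.

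Levels were compared between genes as TPM, in which counts are divided by the deposited gene length and rescaled to the same total in each clone. In the IMF clones the order was *TYROBP* (24.1 ± 7.37 TPM, SD, n = 4), *CD3E* (7.24 ± 3.60), *CD14* (3.34 ± 0.451), *PTPRC* (3.01 ± 2.35), *CD68* (2.62 ± 0.358), *GZMA* (0.141 ± 0.0568) and *CD207* (0.0476 ± 0.015). The clone ranges of neighbours overlapped from *CD3E* to *CD68*, and those of the other neighbours did not. In the SF clones the order was *TYROBP* (38.0 ± 16.7 TPM), *CD3E* (17.8 ± 3.84), *PTPRC* (9.96 ± 3.18), *GZMA* (6.26 ± 5.83), *CD207* (2.19 ± 2.04), *CD68* (1.96 ± 0.766) and *CD14* (1.21 ± 0.453). Here the clone ranges of all neighbours overlapped except those of *TYROBP* and *CD3E*. *TYROBP* lay above 80.8% of the genes tested in IMF and 87.7% in SF by mean TPM. *CD207* lay above 3.09% in IMF and 35.3% in SF.

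IMF3 alone was the lowest clone for 8 of 15 T and NK cell genes and 5 of 8 B cell genes, and for 25 of the 63 listed genes (39.7%), against 8.08% of all genes. IMF2 alone was the lowest for 3 of 11 monocyte and macrophage genes, and for 12 of the 63 (19.0%), against 12.7% of all genes. For 8 of the 63, clones tied for the lowest level and none was counted. SF1 or SF4 was the highest clone for 47 of the 63 (74.6%), against 32.8% of all genes. SF3, the clone with the most *GZMA* and *CD207*, was the highest clone for 0 of the 63, against 10.4% of all genes.

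Genes with the most similar pattern were found by the Pearson correlation of log2 CPM over the 8 clones, which share the difference between the groups, among 15379 genes, and the 3 highest that the RefSeq list names are given. For *CD3E*, they were *CD3D* (r = 0.991), the lymphocyte transcription factor *IKZF3* (0.985) and *PRF1* (0.971). For *PTPRC*, they were *ADGRG5* (0.987), an adhesion receptor, *PARD6B* (0.986), a polarity protein of epithelia, and *SLC5A1* (0.984), a glucose transporter of epithelia. For *GZMA*, they were *CRAT* (0.994), *UBE2QL1* (0.993) and *RNF19A* (0.993), and for *CD207*, *ATP13A2* (0.993), *ASB6* (0.991) and *ID2* (0.988). None of these was on the lists used here, which do not hold every gene that acts in T cells or Langerhans cells. For *CD14*, they were *ING3* (0.995), *THOC6* (0.993) and *PMS1* (0.992). For *CD68*, they were *MAP4K2* (0.981), *CREBBP* (0.978) and *FAAP24* (0.963), and for *TYROBP*, *SLC25A42* (0.930), *ARHGAP17* (0.929) and *NAPSA* (0.921).

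The 7 genes also differed in how many of their 50 most similar rows carried an ID that the RefSeq list does not name. There were 26 such rows for *PTPRC*, 25 for *CD3E* and 20 for *TYROBP*, that is 52.0%, 50% and 40.0%, against 13.7% of the genes compared. There were 4 for *GZMA*, 2 for *CD207* and 0 for *CD14* and *CD68*. The same count was 28 for *DSP* and 31 for *DSG3*, which encode proteins of the desmosome, the junction of stratified epithelia, and 2 for *KRT14*, a keratin of basal keratinocytes.

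**Figure D3:**
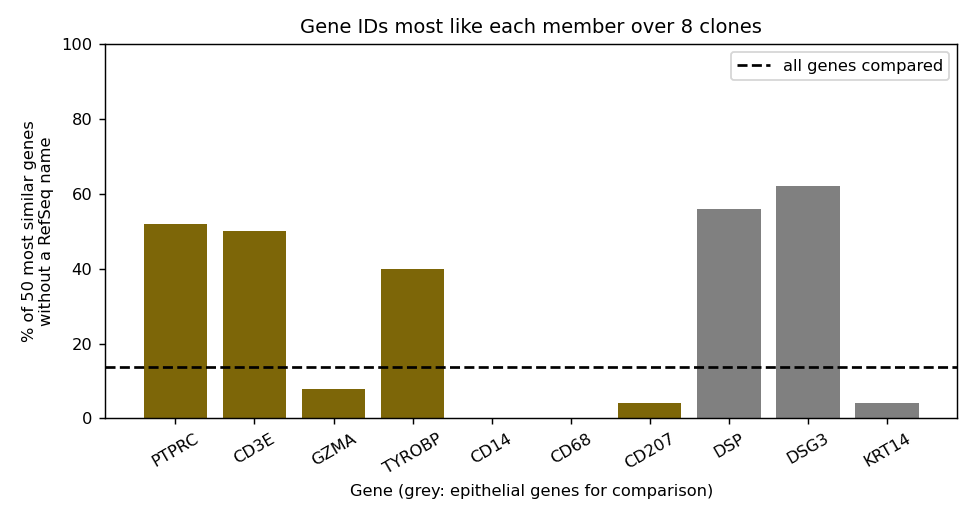
Share of the 50 rows most similar to each gene over the 8 clones whose ID the RefSeq list does not name, in percent, with 3 epithelial genes in grey and the share over all genes compared as a dashed line at 13.7%. *PTPRC*, *CD3E* and *TYROBP* stand at 40.0% or more, and the other 4 leukocyte genes at 8.00% or less.

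The epithelial genes *DSP*, *DSG3* and *KRT14* were counted at high levels in all clones. Of 10 keratinocyte and epithelial genes listed, 5 were tested, with a summed level of 6975 to 10762 CPM in IMF and 7558 to 11016 CPM in SF. *DSP* and *DSG3* were set beside *PTPRC* after their values were seen. *DSP* had 5446, 1223, 3548 and 3917 CPM in IMF1 to IMF4 and 5730, 4783, 4512 and 6247 CPM in SF1 to SF4. *DSP* and *PTPRC* thus ranked the IMF clones in the same order, from IMF1 down through IMF4 and IMF3 to IMF2. *DSG3* was likewise lowest in IMF2, at 506 CPM, but was higher in IMF3 than in IMF4. Other orders differed, since among the SF clones *PTPRC* was highest in SF1 and *DSP* in SF4. *KRT14* was lowest of the IMF clones in IMF1, with 2924 CPM against 5228 CPM in IMF2, and *CDH1* was lowest of them in IMF4. *DSP* (log2 fold change -0.59) and *DSG3* (-0.48) did not pass between the groups, with adjusted p-values of 0.307 and 0.31. *KRT14* was called higher in IMF although its groups overlapped (1.10, adjusted p = 0.0227), and *CDH1*, E-cadherin, had 311 to 528 counts across the IMF clones and 0 in each SF clone, at least 110-fold higher against 3 counts in each clone. The fifth gene tested, *KRT10*, a keratin of upper epidermal layers, had at most 2.73 CPM in a clone, and *KRT5* and *TP63* were among the 5 listed genes with no row. The share of counts on IDs without a RefSeq name was lowest in IMF2 (7.12%) and highest in SF4 (10.6%). The part of epithelial transcripts and of such IDs in the values of *PTPRC*, *CD3E* and *TYROBP* was not tested.

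**Figure D4:**
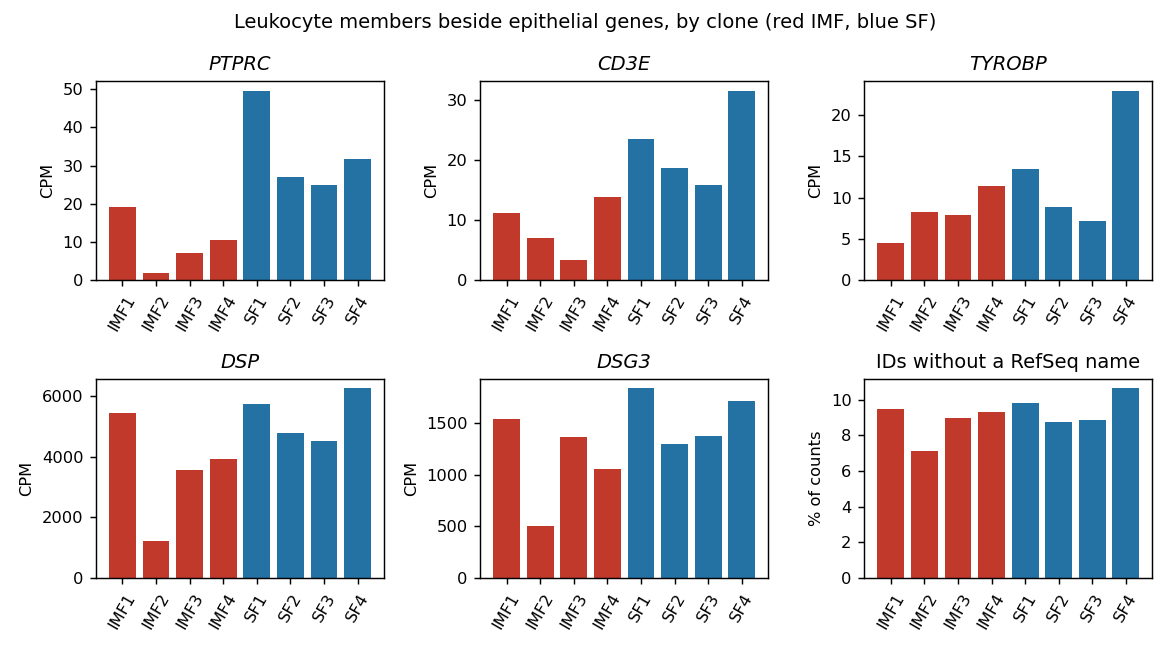
Bars give the level in CPM of *PTPRC*, *CD3E*, *TYROBP*, *DSP* and *DSG3* in each clone and, in the last panel, the percent of counts on IDs without a RefSeq name, with IMF clones in red and SF clones in blue. IMF2 is the lowest clone for *PTPRC* (1.90 CPM), *DSP*, *DSG3* and the share of unnamed IDs, whereas *CD3E* is lowest in IMF3 (3.45 CPM) and *TYROBP* in IMF1 (4.56 CPM).

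Counts of some leukocyte genes came in even numbers only. Of the 63 listed genes, 12 (19.0%) had 8 even counts, *PRF1* among them, against 8.60% of all genes tested. Of the 7 genes chosen by the rule, 0 had 8 even counts, and *GZMA* had 6. Counting intervals treat every count as an independent read, which such counts may not be.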

How the data were processed

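Whole-number counts of reads per gene and clone were used as the authors deposited them. Trimming used Trimmomatic 0.39 and counting featureCounts 2.0.2. The paper's methods name HISAT2 as the aligner, on the assembly ARS-UCD2.0, whereas the submitters' processing notes name STAR 2.7.11a. The annotation release is not given in the sources used here. A filter at 20 counts in total is stated there, yet 532 rows fall below it and were not tested here. The deposited gene length in bases is a further column with another unit. The 2 columns of the authors' group means and the 7 columns of their DESeq2 comparison were not used. A row named "-" (0.0148% to 0.0209% of counts) was left out.

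The remaining 18339 genes entered one fit of all 8 clones in edgeR 4.0.16 (R 4.3.3) with TMM factors. Its quasi-likelihood test was two-sided, and p-values were adjusted by Benjamini-Hochberg over the whole table. Standard errors came from the unshrunken coefficient and the F statistic of the same fit. Intervals of count ratios are exact binomial at 95%. The fit was checked on simulated counts. Named genes were the 9 genes, in each list the genes called (at most 5 by mean CPM) and the 3 with the highest mean, and the 3 most similar genes that RefSeq names without a LOC number, each with a mean of at least 1 CPM. Genes outside this rule (*GZMK*, *HCST*, *TREM1*, *TREM2*, *MYD88*, *TNFSF12*, *KRT10*, *LAPTM5*, *SIGLEC1*, *DYA*, *OVAR-DRB1*, *DQA*) were added after their values were seen. Endothelial genes are given as a summed level only, *COL1A2* and *COL3A1* by name only, and 1 other gene of the rule is not reported here. The members and lists were chosen with earlier results of these data known. Symbols and coordinates are those that RefSeq lists for the same assembly, synonyms included. Alternatives were RLE factors, total counts, DESeq2 1.42.0, limma-voom (limma 3.58.1), other filters, a prior count of 2, the clone number as a block and each clone left out. Testing named IDs only, or without genes of even counts only, was added after the data were seen. Tables and figures were made in Python 3.11.15.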

Additional observations from a re-analysis of the deposited data

Results flagged for a closer look

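Among 14 groups of 4 clones examined for the 7 genes, 2 held a clone far from the others by Dixon's criterion, which chance meets in about 1 group in 20. *CD68* had 2.62 CPM in IMF4, above 1.87 to 1.95 CPM in the other IMF clones. *CD207* had 0.0476 CPM in IMF4, which is 1 count against 2 or 3 in the other IMF clones, all at or under the floor.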

How the results depend on the processing

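The log2 fold changes of the 7 genes kept their sign under all 18 alternatives. With a clone left out, they ranged from -5.72 to -4.61 for *GZMA*, from -5.70 to -4.60 for *CD207*, from -2.37 to -1.46 for *PTPRC*, from -1.63 to -1.08 for *CD3E*, from -0.93 to -0.29 for *TYROBP*, from 0.25 to 0.62 for *CD68* and from 1.36 to 1.67 for *CD14*. A prior count of 2 moved *CD207* to -4.48. Among the 63 listed genes, DESeq2 called 19 lower in IMF in place of 12, and limma-voom 17. Leaving out a clone gave from 5 to 18 lower and from 2 to 5 higher calls, and in each case 5 of the 7 genes chosen by the rule had more than 3 counts in every remaining clone. Scaling by total counts gave 11 lower and 6 higher. No called gene changed sign. Ranked by the mean over all 8 clones in CPM in place of TPM, 1 of the 7 genes, *CD3E*, kept its rank. Nothing in the sources used here pairs clones of the same number (correlation of deviations from the group means from -0.00933 to 0.139 over 4 pairs, with 4 of 8 clones most correlated with their own number), and with the clone number as a replicate block 13 were lower and 5 higher. Genes near the floor, such as *GZMA* and *CD207* in IMF, are limited by depth.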
